A study of Mus musculus with 12 samples.

Results

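The mitochondrial calcium uniporter genes described here are Mcu, Mcub, Micu2, Smdt1 and Slc8b1, 5 of the 55416 gene identifiers counted. They were taken by their mouse symbols, as the pore, the regulators and the exchanger of mitochondrial calcium transport. The set was chosen by a measured value, the count of Mcub, which is nearly absent in the knockout line, so for these 5 genes the difference between the lines is given below as a description with no test. RNA was measured in SIM-A9, a microglial line that the labels give as derived from C57BL/6 mice, in 4 groups of 3 biological replicates. The H14 line, which the labels call MOK-KO for the loss of a kinase (KO), was given medium with 1 µg/mL lipopolysaccharide (LPS, the bacterial ligand of Toll-like receptor 4) for 5 h, or plain medium. The unedited SIM-A9 line (WT) was given the same LPS dose for 5 h, or plain medium. All groups were cultured in DMEM-F12 with fetal bovine and horse serum. The knockout is a single line, so what the loss of MOK does and what else sets the lines apart cannot be told apart. Nothing in the labels says whether replicates were separate cultures from the start, so a p-value here reflects only how far these samples spread, which may be technical.

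The uniporter is the channel of the inner mitochondrial membrane through which calcium enters the matrix. MCU forms the pore, and its paralog MCUB enters the same complex and lowers calcium uptake when it does. EMRE, the product of Smdt1, is the small membrane protein that the animal channel needs to conduct and that holds the regulators to the pore. MICU2 is a calcium-binding gatekeeper that helps keep the channel shut at resting calcium, and NCLX, the product of Slc8b1, returns calcium to the cytosol in exchange for sodium. In macrophages and microglia, calcium in the matrix is studied for its effect on the dehydrogenases of respiration.

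Because the results turn on the pair of pore genes, their coding sequence around the pore motif is shown. The capitals mark the 12 bases that code for the residues aspartate, isoleucine, methionine and glutamate (the DIME motif), which line the mouth of the pore.
Mcu: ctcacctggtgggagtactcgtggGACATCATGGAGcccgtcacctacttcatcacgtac
Mcub: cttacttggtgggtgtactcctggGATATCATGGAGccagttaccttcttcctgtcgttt
The Mcu stretch covers bases 754 to 813 of a coding sequence of 1053 bases, counted from the start codon, and the Mcub stretch covers bases 739 to 798 of 1038. Both come from transcripts of the GENCODE M21 annotation on GRCm38. The pair matched at 47 of 60 bases in the stretch (78.3%) and at 584 of 1020 aligned bases of the coding sequence (57.3%, with 51 gap positions). No 31-base word of Mcub occurred in a transcript of another gene, and 0.159% of the 31-base words of Mcu did. Micu2 shared none and Slc8b1 shared 2.89%. Smdt1 shared 12.6%, and its exons overlapped those of Pheta2 on the same strand over 245 bases, so part of its count could belong to that gene.

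Library totals were 39.7 M to 72.9 M counts. Levels are in CPM, the count of a gene per M counts after scaling of the libraries by the trimmed mean of M values (TMM). Mok itself, the targeted gene, had 1.69, 1.54 and 1.32 CPM in KO under LPS and 2.23, 2.58 and 1.92 CPM in KO in medium. It had 2.83, 2.17 and 2.50 CPM in WT under LPS and 3.33, 3.52 and 3.21 CPM in WT in medium. Every KO library was below every WT library of the same treatment, but Mok RNA was present in all of them. The KO over WT difference of Mok was -0.72 ± 0.19 on the log2 scale (SE) under LPS (adjusted p = 0.0177, edgeR's quasi-likelihood test with Benjamini-Hochberg adjustment) and -0.58 ± 0.19 in medium (adjusted p = 0.0501). Under LPS the adjusted p of Mok was 0.0752 without KO LPS replicate 3, 0.0784 without WT LPS replicate 1 and 0.0514 without WT LPS replicate 3, and the difference in medium passed without KO medium replicate 2 (0.0412) or WT medium replicate 2 (0.0416). It also passed with DESeq2 (-0.60, adjusted p = 0.00603), RLE scaling (0.0443) and protein-coding genes only (0.0281). KO LPS replicate 2 and WT medium replicate 2 stood farthest from their groups. Processed pseudogenes held 6.64% to 7.35% of counts in KO under LPS, 12.76% to 14.26% in KO in medium, 6.27% to 7.05% in WT under LPS and 6.58% to 13.05% in WT in medium.

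The microglial label was checked against 10 microglia and macrophage markers. Their summed level was 875 to 1230 CPM in KO under LPS, 667 to 1010 CPM in KO in medium, 1220 to 1440 CPM in WT under LPS and 967 to 1150 CPM in WT in medium. Cd68, Csf1r, Ptprc and Tyrobp were each at 80.6 CPM or more in every library, and Adgre1 at 35.5 CPM or more. P2ry12, Tmem119 and Cx3cr1, markers of resting microglia in the brain, reached at most 1.03, 6.70 and 6.29 CPM, and Aif1 at most 2.32 CPM. Itgam, which encodes the integrin CD11b, was lower in KO, at 2.48 to 3.25 CPM under LPS and 3.24 to 3.89 CPM in medium, against 22.1 to 27.6 CPM in WT under LPS and 18.9 to 24.9 CPM in WT in medium. The 10 markers of other brain and blood cells summed to 30.7 to 40.2 CPM in KO under LPS, 25.5 to 31.2 CPM in KO in medium, 17.9 to 20.3 CPM in WT under LPS and 14.7 to 20.7 CPM in WT in medium. Mbp and Cd3e held most of that sum, and Aqp4 and Mog, which define astrocytes and oligodendrocytes, had no count in at least 1 WT medium library and at most 9 and 6 counts in any library. Of the microglia and macrophage markers, 3 of 10 were lower and 0 higher in KO under LPS, beside 12.7% and 7.87% of all genes, and 2 were lower and 1 higher in medium, beside 12.3% and 6.88%. Of the markers of other cells, 8 of 10 could be tested, and 1 was higher and 0 lower in KO under either treatment. Under LPS, 2 microglial markers were higher and 3 lower in KO, and 2 were higher and 4 lower in WT. Of all genes, 25.3% were higher and 26.8% lower under LPS in KO, and 16.3% in each direction in WT. Among the markers of other cells, 2 were higher and 1 lower under LPS in KO, and 0 were higher and 1 lower in WT. Their part in the differences given here was not tested.

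Mcub, the subunit that lowers uptake through the channel, was close to absent in the KO line, while the pore subunit Mcu was at a like level in both lines. Mcub had 34, 27 and 28 counts in KO under LPS and 10, 12 and 16 counts in KO in medium. It had 2706, 1800 and 3080 counts in WT under LPS and 1766, 1513 and 1938 counts in WT in medium. Every KO library was far below every WT library, and no KO library was at 0.

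In CPM, Mcub stood at 0.738, 0.496 and 0.659 in KO under LPS and at 0.194, 0.265 and 0.324 in KO in medium. It stood at 46.7, 44.8 and 48.7 CPM in WT under LPS and at 37.2, 32.7 and 30.2 CPM in WT in medium. Within each line the LPS libraries lay above the medium libraries with no overlap. The share of all genes with LPS libraries so separated was not counted, so here and below such separation is a description only. The filter on low counts asks for about 0.214 CPM in these libraries, which Mcub reached in 3 of 3 KO LPS libraries, 2 of 3 KO medium libraries and all WT libraries. All 5 genes passed that filter. The KO over WT log2 fold change of Mcub was -6.99 ± 0.19 (SE) in medium, a level 127-fold lower, and -6.21 ± 0.18 under LPS. In bulk RNA, fewer cells with the transcript and less of it per cell cannot be told apart.

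Mcu had 26.2, 26.8 and 29.9 CPM in KO under LPS and 24.7, 23.8 and 25.2 CPM in KO in medium. It had 28.6, 28.5 and 31.3 CPM in WT under LPS and 26.0, 23.4 and 27.0 CPM in WT in medium. The lines overlapped under both treatments, and in each line every LPS library was above every medium library. The KO over WT difference of Mcu was -0.05 ± 0.08 (log2, SE) in medium and -0.09 ± 0.08 under LPS.

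**Figure D1:**
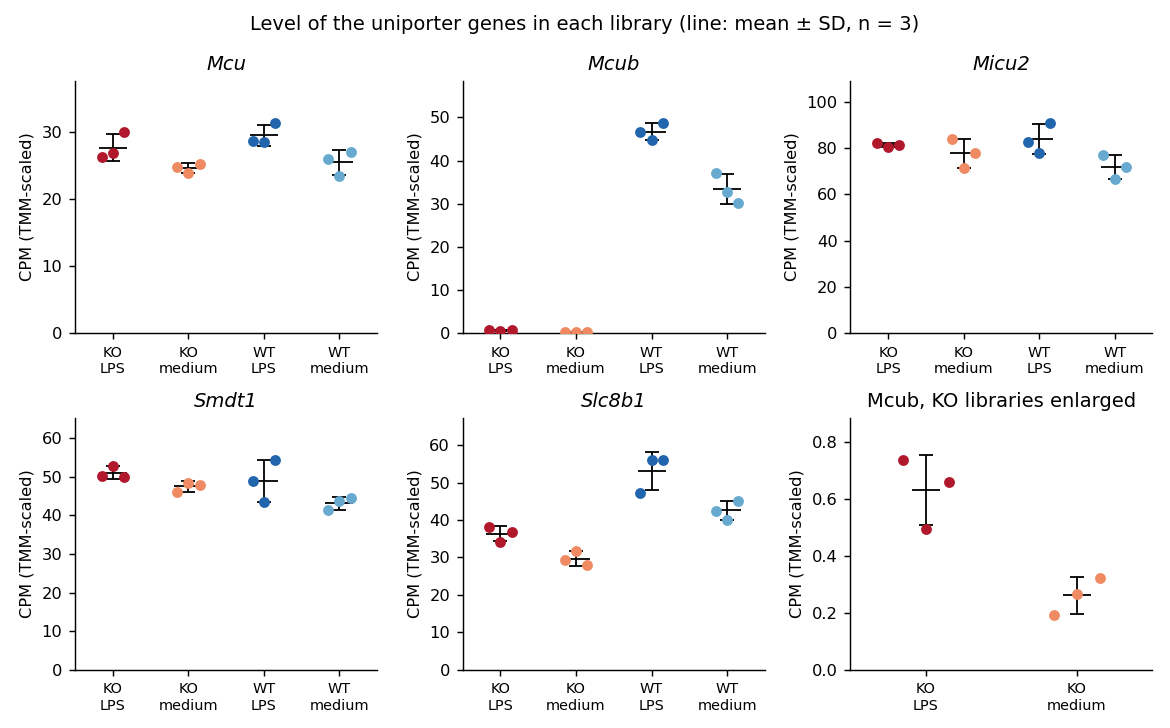
Level of each uniporter gene in CPM (vertical axis) in the 12 libraries (points) of the 4 groups, with the mean and SD of 3 libraries as lines. The last panel enlarges Mcub in the KO line. Mcub lies between 0.194 and 0.738 CPM in KO libraries and between 30.2 and 48.7 CPM in WT libraries, and the KO libraries of Slc8b1 lie below those of WT, while Mcu, Micu2 and Smdt1 sit at like levels in both lines.

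Micu2, the gatekeeper, had 82.0, 80.3 and 81.3 CPM in KO under LPS and 83.9, 71.2 and 77.9 CPM in KO in medium. It had 82.7, 78.0 and 90.8 CPM in WT under LPS and 77.0, 66.5 and 71.6 CPM in WT in medium. The lines overlapped under both treatments, and so did the LPS and medium libraries of the KO line. In WT every LPS library was above every medium library. The KO over WT difference of Micu2 was 0.12 ± 0.08 (log2, SE) in medium and -0.05 ± 0.08 under LPS.

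Smdt1, which encodes EMRE, had 50.2, 52.9 and 50.0 CPM in KO under LPS and 46.0, 48.5 and 47.9 CPM in KO in medium. It had 48.9, 43.4 and 54.4 CPM in WT under LPS and 41.3, 43.7 and 44.5 CPM in WT in medium. In medium the KO libraries were all above the WT libraries, by a small margin, and under LPS the lines overlapped. In KO every LPS library was above every medium library, while in WT they overlapped. The KO over WT difference of Smdt1 was 0.14 ± 0.08 (log2, SE) in medium and 0.06 ± 0.08 under LPS.

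Slc8b1, which encodes the sodium and calcium exchanger NCLX, was the other gene of the 5 with separate lines under both treatments. It had 38.0, 34.1 and 36.8 CPM in KO under LPS and 29.3, 31.8 and 27.9 CPM in KO in medium. It had 47.3, 56.1 and 55.9 CPM in WT under LPS and 42.5, 40.1 and 45.1 CPM in WT in medium. Every KO library was below every WT library of the same treatment, and in each line the LPS libraries lay above the medium libraries. The KO over WT difference of Slc8b1 was -0.52 ± 0.09 (log2, SE) in medium, 1.43-fold lower, and -0.55 ± 0.09 under LPS, 1.46-fold lower. Thus 2 of the 5 genes, Mcub and Slc8b1, had all KO libraries below all WT libraries under both treatments. Of all 26420 genes tested, 19.2% were called in medium (6.88% higher and 12.3% lower in KO) and 20.6% under LPS (7.87% higher and 12.7% lower), and 12.5% of all genes had every KO library below every WT library under both treatments. Nothing is read from the count of 2, since these contrasts chose the set. The median KO over WT difference of the 5 was -0.05 in medium and -0.09 under LPS, beside 0.04 and 0.07 over all genes.

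Genes beside Mcub on its chromosome were examined after its level was seen, as the 3 nearest tested protein-coding genes on each side in the RefSeq gene order. Of the 6, Cfi, Col25a1 and Etnppl averaged at most 0.203, 0.527 and 0.493 CPM in any group, WT included, so a near absence in KO could not have been seen in them. The other genes, Pla2g12a, Casp6 and Sec24b, were expressed in both lines and were not called in medium (adjusted p of 0.636, 0.491 and 0.662 by edgeR's quasi-likelihood test). Pla2g12a, a secreted phospholipase, averaged 45.8 CPM in KO under LPS and 46.5 CPM in KO in medium, against 41.8 CPM in WT under LPS and 48.8 CPM in WT in medium. Under LPS only Sec24b, the next gene on one side and a component of the coat of transport vesicles, was called, with mean levels of 264 CPM in KO and 415 CPM in WT (log2 fold change -0.65 ± 0.12, adjusted p = 0.00205). Sec24b averaged 118 CPM in KO in medium and 124 CPM in WT in medium (log2 fold change -0.08 ± 0.12). Casp6, the next gene on the other side and an apoptosis protease, averaged 13.6 CPM in KO under LPS and 21.9 CPM in KO in medium, against 16.4 CPM in WT under LPS and 20.0 CPM in WT in medium. Its KO over WT difference was 0.13 ± 0.13 in medium and -0.27 ± 0.13 under LPS.

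**Figure D2:**
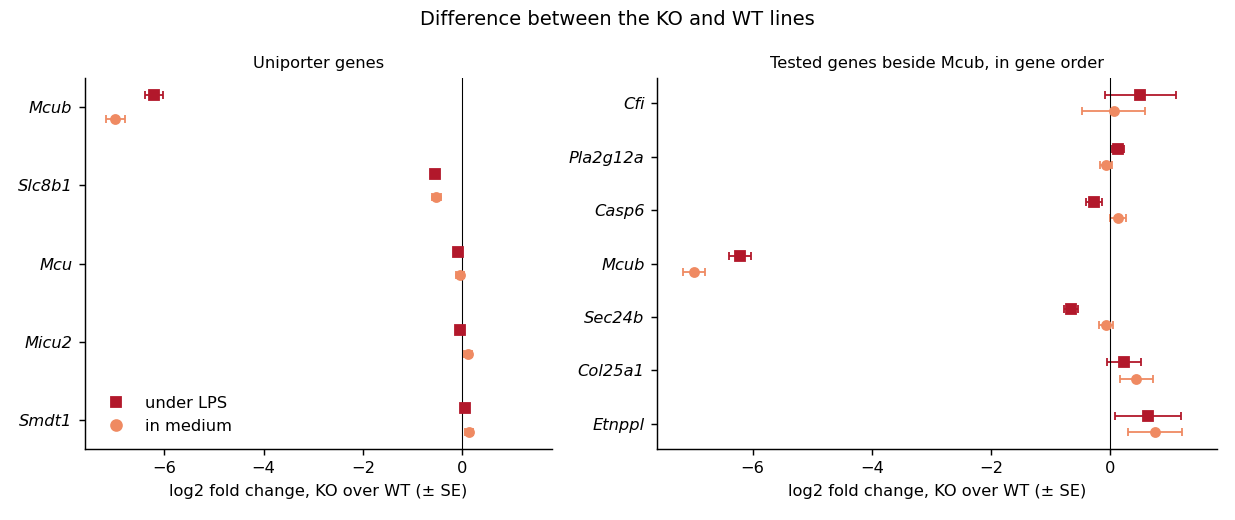
KO over WT log2 fold change with its SE (horizontal axes), under LPS (squares) and in medium (circles), for the uniporter genes on the left and for Mcub and the tested genes beside it on the right, in gene order. Mcub lies at -6.21 and -6.99, while Sec24b under LPS, at -0.65, was the only call beside it. Cfi, Col25a1 and Etnppl averaged at most 0.527 CPM in both lines.

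The response to LPS was not used to choose the genes and was tested in each line over all 26420 genes. In KO, LPS left Mcub 2.40-fold higher, at a log2 fold change of 1.26 ± 0.20 by the model (SE) and an adjusted p of 0.000682 (edgeR's quasi-likelihood test with Benjamini-Hochberg adjustment). In WT, Mcub was 1.40-fold higher, with a log2 fold change of 0.49 ± 0.14 (adjusted p = 0.0181). All 3 LPS libraries exceeded all 3 medium libraries in both lines, a separation that was not counted over all genes. Of all genes, 25.3% were called higher under LPS in KO and 16.3% in WT. In KO the rise stood on few counts, 89 in the LPS libraries against 38 in the medium libraries, and in WT on 7586 counts against 5217. Divided by the summed TMM-scaled library sizes, these counts gave an LPS over medium ratio of 2.39 in KO (95% Clopper-Pearson interval 1.62 to 3.60) and 1.42 in WT (1.37 to 1.48), intervals that cover counting error only. The call in KO was kept in 20 of 20 alternative settings (1.00 to 1.42). The call in WT was lost when WT LPS replicate 1 (adjusted p = 0.0591) or replicate 3 (0.0696) was left out, with no filter on low counts (0.40, adjusted p = 0.0594) and with library size alone as scaling (0.15, adjusted p = 0.340).

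The LPS effect on Mcub was 0.77 ± 0.24 larger on the log2 scale in KO than in WT, but this difference did not pass (adjusted p = 0.181, edgeR's quasi-likelihood test of the interaction). It passed in 1 of 20 alternative settings, when both KO LPS replicate 2 and WT medium replicate 2 were left out (0.94, adjusted p = 0.0391). Of the 5 genes 0 were called in the interaction, in which 1.6% of all genes were called, 0.693% with a larger and 0.908% with a smaller effect in KO. At an unadjusted p under 0.05 the count was 1 of 5, and DESeq2 called 0.

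Slc8b1 was also higher under LPS in both lines. Its log2 fold change was 0.29 ± 0.09 in KO, 1.22-fold higher (adjusted p = 0.0173), and 0.32 ± 0.09 in WT, 1.25-fold higher (adjusted p = 0.0179), by edgeR's quasi-likelihood test. The difference between the lines was -0.03 ± 0.13 (adjusted p = 0.937). These calls were sensitive to single libraries. In KO the adjusted p of Slc8b1 was 0.0589 without KO LPS replicate 1, 0.106 without KO medium replicate 1, 0.149 without KO medium replicate 3 and 0.0611 without WT medium replicate 1. The call in WT was lost without any KO medium replicate (0.0549 to 0.0673), WT LPS replicate 2 (0.0614) or 3 (0.0687), or WT medium replicate 1 (0.125) or 2 (0.176). With no filter on low counts the Slc8b1 effect was 0.17 in KO (adjusted p = 0.222) and 0.23 in WT (0.138), and with protein-coding genes only it was 0.14 in KO (0.201) and 0.22 in WT (0.0577). With the share of processed pseudogenes as a covariate it was 0.12 in KO (adjusted p = 0.801) and 0.24 in WT (0.167), while Mcub kept its call in both lines (1.41, adjusted p = 0.0102 in KO, and 0.56, adjusted p = 0.0176 in WT). In KO this share was 12.76% to 14.26% in medium and 6.64% to 7.35% under LPS. The covariate therefore follows the treatment in KO, and an LPS call lost with it there cannot be told apart from removal of the LPS contrast itself.

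Mcu, Micu2 and Smdt1 did not pass in either line. For Mcu the LPS effect was 0.17 ± 0.08 in KO (adjusted p = 0.104) and 0.21 ± 0.08 in WT (adjusted p = 0.0689), by edgeR's quasi-likelihood test. For Micu2 it was 0.07 ± 0.08 in KO (adjusted p = 0.543) and 0.23 ± 0.08 in WT (adjusted p = 0.0588). For Smdt1 it was 0.11 ± 0.08 in KO (adjusted p = 0.298) and 0.18 ± 0.08 in WT (adjusted p = 0.11). All 6 estimates were above 0, and Micu2 in WT passed without WT LPS replicate 2 (adjusted p = 0.0491), as did Smdt1 (0.0282). Micu2 in WT also passed with DESeq2 (0.26, adjusted p = 0.0456) and with RLE scaling (0.26, adjusted p = 0.0492). The interaction was -0.04 ± 0.12 for Mcu, -0.16 ± 0.12 for Micu2 and -0.07 ± 0.12 for Smdt1, with adjusted p of 0.892, 0.577 and 0.789.

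In each line 2 of the 5 genes were called higher under LPS and 0 lower. Over all genes, 52% were called in KO (25.3% higher and 26.8% lower) and 32.6% in WT (16.3% in each direction), so a count of 2 of 5 is not read as a result about the set. At an unadjusted p under 0.05 the count was 2 in KO and 5 in WT, and DESeq2 called 2 in KO and 3 in WT. The median LPS effect of the 5 was 0.17 in KO and 0.23 in WT, beside -0.03 and -0.07 over all genes. With library size alone as scaling, the median of all genes moved to -0.29 in KO and -0.40 in WT. On that scale Micu2 in KO was called lower (-0.19, adjusted p = 0.0353), and Slc8b1 stood at 0.03 in KO and -0.01 in WT.

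**Figure D3:**
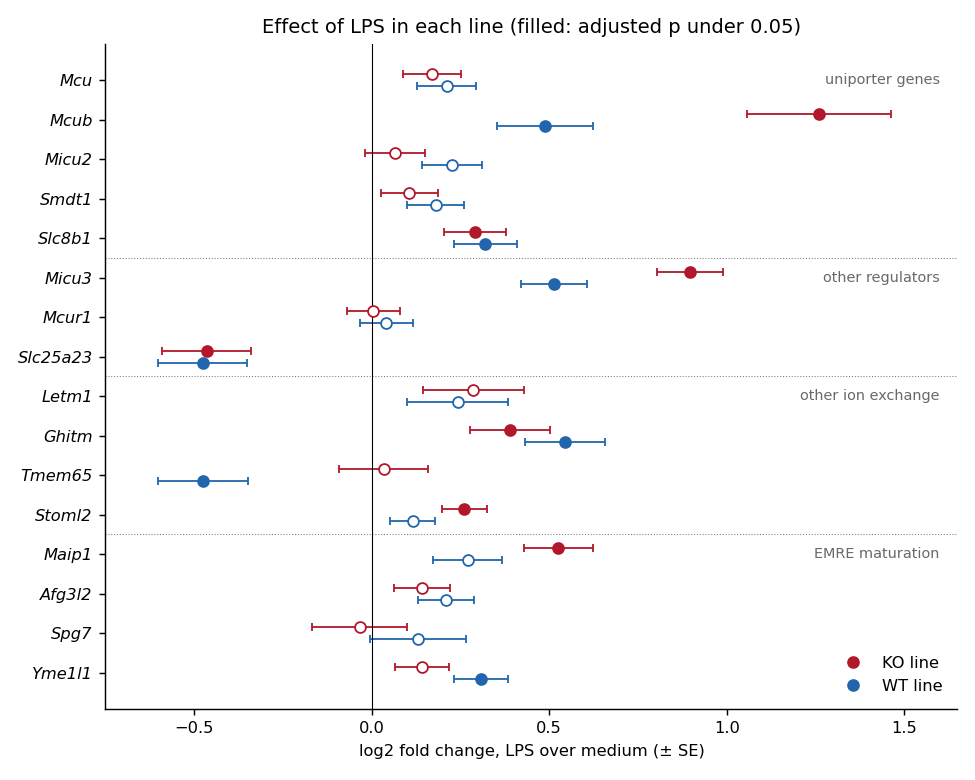
Effect of LPS against medium as a log2 fold change with its SE (horizontal axis), in KO (red) and WT (blue). Rows are the uniporter genes, the other regulators, the genes of other mitochondrial ion exchange and those of EMRE maturation and turnover. Filled points passed an adjusted p under 0.05. Among the uniporter genes, Mcub and Slc8b1 passed in both lines, and among the other regulators Micu3 was higher and Slc25a23 lower in both.

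The ratio of each gene to Mcu within a library does not depend on library scaling. It was taken per kb of exon, on the log2 scale, and compared between LPS and medium libraries of a line with a two-sided exact permutation test, whose smallest possible p with 3 against 3 libraries is 0.1. The log2 ratio of Mcub to Mcu was -2.76, -3.36 and -3.11 in KO under LPS and -4.60, -4.09 and -3.89 in KO in medium. It was 3.10, 3.05 and 3.03 in WT under LPS and 2.91, 2.88 and 2.55 in WT in medium. The LPS libraries were above the medium libraries in both lines. The mean ratio was 1.12 higher under LPS in KO (exact p = 0.1) and 0.28 higher in WT (exact p = 0.1), the smallest p this design gives. As a plain ratio, Mcub RNA per kb was 0.0972 to 0.148 of that of Mcu in KO under LPS and 0.0413 to 0.0676 in KO in medium, against 8.19 to 8.59 in WT under LPS and 5.87 to 7.52 in WT in medium. With the length of the longest transcript, the ratio in WT was 3.39 to 3.56 under LPS and 2.43 to 3.11 in medium.

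The other ratios to Mcu moved little with LPS, and the LPS and medium libraries overlapped for each. For Micu2 the LPS minus medium difference was -0.10 in KO (exact permutation p = 0.4) and 0.01 in WT (p = 0.8). For Smdt1 it was -0.06 in KO (exact permutation p = 0.6) and -0.04 in WT (p = 0.7). For Slc8b1 it was 0.12 in KO (exact permutation p = 0.4), with mean log2 ratios of 1.40 under LPS and 1.27 in medium. In WT the Slc8b1 difference was 0.10 (exact permutation p = 0.3), with mean log2 ratios of 1.85 under LPS and 1.74 in medium.

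**Figure D4:**
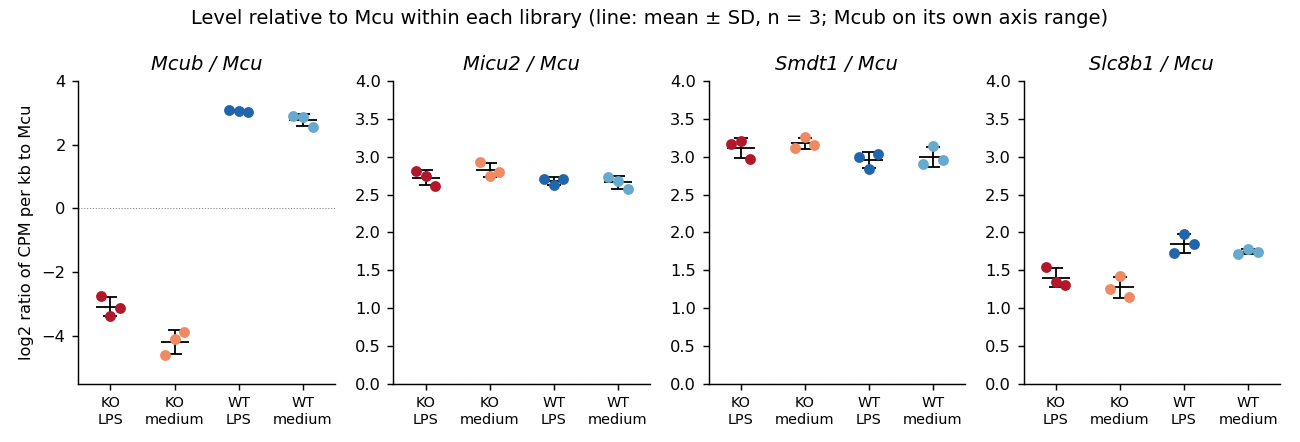
Log2 ratio of CPM per kb to that of Mcu within each library (vertical axes), for Mcub, Micu2, Smdt1 and Slc8b1 in the 4 groups. Points are libraries and lines are the mean and SD of 3. The Mcub ratio is below 0 in all KO libraries and above 0 in all WT libraries and is higher under LPS in both lines, while the LPS and medium libraries overlap for the other genes.

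Per kb of exon, the order of the levels was the same in both KO groups and changed in WT by the place of Mcub. In KO under LPS, Smdt1 was at 34.5 ± 1.10 CPM per kb (SD, n = 3), Micu2 at 26.3 ± 0.282, Slc8b1 at 10.5 ± 0.574, Mcu at 3.99 ± 0.280 and Mcub at 0.479 ± 0.0937. In KO in medium, Smdt1 was at 32.1 ± 0.887 CPM per kb, Micu2 at 25.2 ± 2.05, Slc8b1 at 8.57 ± 0.571, Mcu at 3.54 ± 0.104 and Mcub at 0.198 ± 0.0493. No neighbours in that order overlapped.

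In WT under LPS, Mcub led at 35.5 ± 1.47 CPM per kb (SD, n = 3), followed by Smdt1 at 33.1 ± 3.70, Micu2 at 27.2 ± 2.10, Slc8b1 at 15.3 ± 1.44 and Mcu at 4.25 ± 0.225. In WT in medium, Smdt1 led at 29.2 ± 1.15 CPM per kb, followed by Mcub at 25.3 ± 2.69, Micu2 at 23.2 ± 1.69, Slc8b1 at 12.3 ± 0.725 and Mcu at 3.67 ± 0.274. The libraries of Mcub and Smdt1 overlapped in both WT groups, those of Smdt1 and Micu2 met under LPS, and those of Mcub and Micu2 overlapped in medium. The order depends on the gene length. With the longest transcript, Smdt1 led in every group (69.3, 64.5, 66.4 and 58.7 CPM per kb in KO under LPS, KO in medium, WT under LPS and WT in medium). Micu2 was then above Mcub in both WT groups. In medium they averaged 30.8 and 25.3 and did not overlap (28.6 to 33.0 and 22.9 to 28.2). Under LPS they averaged 36.0 and 35.5 and overlapped.

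Further regulators of the channel, Micu3, Mcur1 and Slc25a23, were read from a list drawn up with earlier results of these data known. Of the 3, 1 was higher and 1 lower under LPS in each line (median 0.00 in KO and 0.04 in WT), beside 52% of all genes called in KO and 32.6% in WT. Micu3, a further gatekeeper of the MICU family, averaged 21.7 ± 1.51 CPM in KO under LPS and 11.7 ± 0.955 CPM in KO in medium (SD, n = 3). It averaged 18.3 ± 0.451 CPM in WT under LPS and 12.8 ± 0.724 CPM in WT in medium. Micu3 rose under LPS by a log2 fold change of 0.90 ± 0.09 in KO (adjusted p = 2.53e-05) and 0.51 ± 0.09 in WT (adjusted p = 0.00145), by edgeR's quasi-likelihood test. The difference between these effects, 0.38 ± 0.13, did not pass (adjusted p = 0.218). With library size alone as scaling, the call of Micu3 in WT was lost (0.18, adjusted p = 0.176).

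Slc25a23, a calcium-sensing carrier of ATP-magnesium and phosphate that can bind the uniporter, fell under LPS in both lines. It averaged 71.0 ± 9.36 CPM in KO under LPS and 98.0 ± 6.60 CPM in KO in medium, against 55.7 ± 9.27 CPM in WT under LPS and 77.4 ± 4.13 CPM in WT in medium (SD, n = 3). Its LPS effect was -0.47 ± 0.13 in KO (adjusted p = 0.0101) and -0.48 ± 0.13 in WT (adjusted p = 0.0148), by edgeR's quasi-likelihood test. In WT its adjusted p was 0.0517 without WT LPS replicate 1 and 0.0573 without WT LPS replicate 2, and in KO it was 0.258 with the processed pseudogene covariate (-0.52). Mcur1, a scaffold of the complex, did not pass under LPS, at 0.00 in KO (adjusted p = 0.965) and 0.04 in WT (0.689).

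Between the lines, 0 of these 3 were called by edgeR's quasi-likelihood test, under LPS (median 0.25) or in medium (median 0.20), beside 20.6% and 19.2% of all genes. At an unadjusted p under 0.05 the count was 3 under LPS and 2 in medium, and DESeq2 called 0 under either treatment. For Slc25a23 the KO over WT difference was 0.35 ± 0.13 under LPS (adjusted p = 0.0752) and 0.34 ± 0.13 in medium (0.0812). For Micu3 it was 0.25 ± 0.09 under LPS (adjusted p = 0.0819) and -0.13 ± 0.09 in medium (0.308), and for Mcur1 it was 0.16 ± 0.07 under LPS (0.154) and 0.20 ± 0.07 in medium (0.0779). Mcur1 passed in medium without KO LPS replicate 2 (0.20, adjusted p = 0.0451), and Slc25a23 passed under LPS when KO LPS replicate 2 (0.45, adjusted p = 0.027) or WT LPS replicate 3 (0.47, adjusted p = 0.031) was left out. With protein-coding genes only, Slc25a23 passed under LPS (0.32, adjusted p = 0.0473) and in medium (0.36, adjusted p = 0.0296), and Mcur1 passed in medium (0.22, adjusted p = 0.0283).

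Of the 4 genes of other mitochondrial ion exchange (Letm1, Ghitm, Tmem65 and Stoml2), 2 were higher and 0 lower under LPS in KO, and 1 was higher and 1 lower in WT (medians 0.27 and 0.18). The shares of all genes were 25.3% higher and 26.8% lower in KO and 16.3% in each direction in WT. Ghitm, which encodes an inner membrane protein reported to exchange calcium for protons, rose by 0.39 ± 0.11 in KO (adjusted p = 0.0132) and 0.54 ± 0.11 in WT (adjusted p = 0.00353), by edgeR's quasi-likelihood test. The KO call was lost without KO LPS replicate 1 (0.0578) or KO medium replicate 2 (0.0568), with no filter (0.27, 0.0505), with protein-coding genes only (0.24, 0.0629) and with the pseudogene covariate (0.41, 0.363). Stoml2, a stomatin-like protein of the inner membrane, rose by 0.26 ± 0.06 in KO (adjusted p = 0.00592), a call lost without KO medium replicate 3 (0.06), with no filter (0.14, 0.217), with protein-coding genes only (0.11, 0.157) and with the covariate (0.18, 0.59). In WT Stoml2 was not called (0.115 ± 0.063, adjusted p = 0.179), and its interaction did not pass (0.15 ± 0.09, adjusted p = 0.505). With library size alone as scaling, the LPS effect was 0.13 (adjusted p = 0.264) for Ghitm and 0.00 (0.985) for Stoml2 in KO, and 0.21 (0.0931) for Ghitm in WT. Tmem65, a mitochondrial protein linked to sodium-dependent calcium efflux, fell by 0.48 ± 0.13 in WT (adjusted p = 0.0151), a call lost without WT LPS replicate 1 (0.0698) or 2 (0.0637). In KO Tmem65 was not called (0.03 ± 0.13, adjusted p = 0.839), and its interaction did not pass (0.51 ± 0.18, adjusted p = 0.232). Between the lines Ghitm alone of the 4 was called, and under LPS only (-0.44 ± 0.11, adjusted p = 0.0151), a call lost without KO LPS replicate 3 (0.0537) or WT LPS replicate 3 (0.0616). The list's median KO over WT difference was 0.12 under LPS and -0.17 in medium. Between the lines, 20.6% of all genes were called under LPS and 19.2% in medium.

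Of the 4 genes of EMRE maturation and turnover (Maip1, Afg3l2, Spg7 and Yme1l1), 1 was higher and 0 lower under LPS in each line (medians 0.14 in KO and 0.24 in WT). The shares of all genes were 25.3% higher and 26.8% lower in KO and 16.3% in each direction in WT. Maip1, which helps newly imported EMRE to mature, rose by 0.53 ± 0.10 in KO (adjusted p = 0.00163, edgeR's quasi-likelihood test). In WT Maip1 was not called (0.27 ± 0.10, adjusted p = 0.0513), and its interaction did not pass (0.255 ± 0.137, adjusted p = 0.445). Yme1l1, a protease of the inner membrane, rose by 0.31 ± 0.08 in WT (adjusted p = 0.00962), a call lost without WT medium replicate 2 (0.0717), with no filter (0.22, 0.0642), with the covariate (0.31, 0.0588) and with library size alone (-0.03, 0.74). In KO Yme1l1 was not called (0.142 ± 0.075, adjusted p = 0.132), and its interaction did not pass (-0.17 ± 0.11, adjusted p = 0.521). The call of Maip1 was lost with the covariate (0.49, 0.179). Yme1l1 was lower in KO than in WT under both treatments, by -0.64 ± 0.08 under LPS (adjusted p = 9.59e-05) and -0.47 ± 0.08 in medium (adjusted p = 0.00114), and no left-out library ended either call. Spg7, a subunit of the matrix-facing protease, was higher in KO in medium (0.47 ± 0.14, adjusted p = 0.0329), and Afg3l2, its partner, was lower in KO under LPS (-0.26 ± 0.08, adjusted p = 0.0355). The call of Spg7 was lost without KO medium replicate 1 (0.102) or 3 (0.117), WT LPS replicate 1 (0.0507), or WT medium replicate 1 (0.0853) or 3 (0.0688), and with the covariate (0.18). The call of Afg3l2 was lost without KO LPS replicate 1 (0.0637), 2 (0.106) or 3 (0.0661), or WT LPS replicate 1 (0.0843) or 3 (0.141), with RLE scaling (0.0608) and with library size alone (0.0589). The list's median difference between the lines was -0.07 under LPS and -0.16 in medium.

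Farther along the calcium pathway, the 10 genes of the outer membrane and of contacts with the endoplasmic reticulum (ER) held 4 higher and 1 lower under LPS in KO (median 0.14), beside 25.3% and 26.8% of all genes, and 3 higher and 0 lower in WT (0.11), beside 16.3% in each direction. Between the lines 1 was higher and 4 lower in KO under LPS (median -0.14), beside 7.87% and 12.7% of all genes, and 2 were higher and 3 lower in medium (-0.12), beside 6.88% and 12.3%. Pacs2, which sorts proteins to these contacts, was lower in KO than in WT under LPS by -0.65 ± 0.10 (adjusted p = 0.000472, edgeR's quasi-likelihood test), and Vapb, an ER tether, was lower in medium by -0.59 ± 0.10 (adjusted p = 0.00201). Both were also lower under the other treatment, Pacs2 in medium (-0.45 ± 0.10, adjusted p = 0.00644) and Vapb under LPS (-0.60 ± 0.10, adjusted p = 0.0015). Under LPS, Pacs2 fell in KO (-0.37 ± 0.10, adjusted p = 0.00736) and Hspa9, the mitochondrial chaperone mortalin, rose in WT (0.39 ± 0.09, adjusted p = 0.00608). Hspa9 also rose in KO (0.23 ± 0.09, adjusted p = 0.0428), and Pacs2 was not called in WT (-0.175, adjusted p = 0.1745).

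The 10 genes of ER calcium release, uptake and store-operated entry held 4 higher and 2 lower under LPS in KO (median -0.03), beside 25.3% and 26.8% of all genes. In WT they held 4 higher and 1 lower (0.31), beside 16.3% in each direction. Stim2, a calcium sensor of the ER, rose by 0.56 ± 0.10 in KO (adjusted p = 0.00129) and 1.18 ± 0.10 in WT (adjusted p = 5.48e-06), by edgeR's quasi-likelihood test, and the difference between these effects did not pass (-0.61 ± 0.14, adjusted p = 0.0592). Atp2a3, an ER calcium pump, rose by 1.15 ± 0.30 in KO (adjusted p = 0.00905). In WT Atp2a3 was not called (0.58 ± 0.31, adjusted p = 0.166), and its interaction did not pass (0.57 ± 0.43, adjusted p = 0.585). Between the lines 3 were higher and 5 lower in KO under LPS (median -0.29), beside 7.87% and 12.7% of all genes, and 1 was higher and 1 lower in medium (median 0.01), beside 6.88% and 12.3%. Itpr1, an inositol trisphosphate receptor, was higher in KO in medium (0.58 ± 0.08, adjusted p = 0.000469) and under LPS (0.39 ± 0.08, adjusted p = 0.00511). Atp2a3 was higher in KO under LPS (1.07 ± 0.30, adjusted p = 0.0266), a call lost without KO LPS replicate 1 (0.0788) or 3 (0.115) or any WT LPS replicate (0.0572 to 0.0975). Atp2a2 was also higher in KO under LPS (0.24, adjusted p = 0.0367). The 5 lower there were Itpr2 (-0.86, adjusted p = 0.00917), Stim2 (-0.64, 0.000715), Stim1 (-0.61, 0.00214), Orai2 (-0.42, 0.0136) and Orai3 (-0.32, 0.0303).

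The 12 calcium-responsive mitochondrial enzymes and carriers held 3 higher and 1 lower under LPS in KO (median 0.10), beside 25.3% and 26.8% of all genes. In WT they held 4 higher and 1 lower (0.15), beside 16.3% in each direction. Slc25a25, a calcium-dependent ATP-magnesium and phosphate carrier, rose most, by 2.80 ± 0.11 in KO (adjusted p = 1.02e-08) and 2.14 ± 0.10 in WT (adjusted p = 6.47e-08), by edgeR's quasi-likelihood test. Of the genes of these calcium lists it alone was called in the interaction by edgeR. Between the lines 2 were higher and 5 lower in KO under LPS (median -0.25), and 1 was higher and 5 lower in medium (-0.28), beside 7.87% and 12.7% of all genes under LPS and 6.88% and 12.3% in medium. Gpd2, the calcium-sensitive glycerol phosphate dehydrogenase of the outer face of the inner membrane, was lower in KO under LPS (-0.99 ± 0.07, adjusted p = 3.05e-06), and Slc25a25 was lower in KO in medium (-0.91 ± 0.10, adjusted p = 8.35e-05). Gpd2 was also lower in KO in medium (-0.83 ± 0.07, adjusted p = 1.52e-05), while Slc25a25 was not called under LPS (-0.25 ± 0.10, adjusted p = 0.104).

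Of the 12 genes that track mitochondrial content, edgeR called 0 under LPS in KO (median 0.14), where 2 had an unadjusted p under 0.05 and DESeq2 called 2 higher. Over all genes, edgeR called 52% under LPS in KO and 32.6% in WT. In WT 1 of the 12 was higher (median 0.19). That gene, Cox4i1, a subunit of cytochrome c oxidase, stood at 0.35 ± 0.12 (adjusted p = 0.0358, edgeR's quasi-likelihood test), and its call was lost without KO medium replicate 1 or 3, WT LPS replicate 1 or 3, or any WT medium replicate (adjusted p 0.0507 to 0.165). Between the lines 2 were higher and 2 lower in KO under LPS (median 0.01), beside 7.87% and 12.7% of all genes, and 0 were higher and 1 lower in medium (median 0.07), beside 6.88% and 12.3%. Cs, citrate synthase, was lower in KO in medium (-0.43 ± 0.09, adjusted p = 0.00527), and Sdha, a subunit of succinate dehydrogenase, was lower in KO under LPS (-0.43 ± 0.13, adjusted p = 0.0386). Cs was also lower in KO under LPS (-0.39 ± 0.09, adjusted p = 0.00817), while Sdha was not called in medium (-0.25 ± 0.13, adjusted p = 0.1975). The 2 higher in KO under LPS were Tomm20 (0.42 ± 0.08, adjusted p = 0.00267) and Tfam (0.26 ± 0.08, adjusted p = 0.0486). The call of Sdha was lost without KO LPS replicate 2 (0.126) or 3 (0.0779) or WT LPS replicate 1 (0.114) or 3 (0.131).

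Other settings also ended calls named in the larger lists. With the pseudogene covariate, which follows the treatment in KO, Pacs2 (-0.52, adjusted p = 0.126) and Atp2a3 (1.33, 0.209) were not called under LPS in KO. With it Cox4i1 (0.35, 0.122) was also not called under LPS in WT, and Cs (-0.37, 0.108) was not called between the lines in medium. With library size alone, Hspa9 (0.06, adjusted p = 0.61) and Cox4i1 (0.02, 0.902) were not called under LPS in WT. Cox4i1 was also not called with no filter (0.26, 0.0924) or with protein-coding genes only (0.26, 0.0607).

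The genes whose profiles over the 12 libraries were most like that of Mcub were found by the root mean square difference of gene-centred log2 CPM, among the 9748 protein-coding genes tested whose mean log2 CPM was 2 or more. They were Csf2ra (0.424), Slc7a2 (0.597), Neo1 (0.759), C5ar1 (0.766) and Igsf6 (0.831), and over the 4 group means the same 5 genes came first. This is a description, since Mcub was chosen for this pattern. Csf2ra, a receptor subunit for the cytokine GM-CSF, had mean log2 CPM of 0.01 in KO under LPS and -0.47 in KO in medium, against 6.32 in WT under LPS and 5.71 in WT in medium. Slc7a2, a carrier of cationic amino acids, had -1.17 and -1.84 in KO under LPS and in medium, against 6.44 and 5.35 in WT under LPS and in medium. Neo1 and Igsf6, a netrin and repulsive guidance molecule receptor and an immunoglobulin superfamily protein, were likewise low in both KO groups, at -0.68 and -0.61 in KO under LPS, against 6.65 and 5.93 in WT under LPS. C5ar1, the receptor for the complement fragment C5a, had 0.32 in KO under LPS and -1.72 in KO in medium, against 6.87 in WT under LPS and 4.67 in WT in medium.

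For Mcu, whose level hardly varied, the 5 nearest were Ece1 (0.052), Cdk16 (0.056), Timm44 (0.058), Exd2 (0.060) and Mgea5 (0.063). Over the 4 group means 0 of these 5 remained among the nearest, so that likeness rests on small differences between libraries.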

How the data were processed

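Per the labels' protocols, total RNA was depleted of ribosomal RNA and made into strand-specific libraries, 12 in all. The authors deposited whole-number raw counts for each Ensembl identifier and library. The authors used FastQC 0.11.9, Trimmomatic 0.39, STAR 2.7.9a, featureCounts and DESeq2 1.32.0 on GRCm39, per the submitters' processing notes. Strand setting, annotation release and handling of multi-mapping reads were not given in the sources used here. Symbols matched 52083 of 55416 identifiers (GENCODE M21, GRCm38). Since the builds differ, no genome coordinates are given.

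The main test was edgeR 4.0.16 (R 4.3.3) on the counts. filterByExpr by group (count minimum 10) left 26420 genes, TMM scaled the libraries, and glmQLFit (robust) fitted 4 group means over 12 libraries (biological coefficient of variation 0.235). Calls needed an adjusted p (Benjamini-Hochberg, over all genes) under 0.05. The 5 comparisons were LPS against medium in each line, their difference (the interaction), and KO against WT under LPS and in medium. CPM are TMM-scaled, and log2 CPM used a prior count of 2. Exact permutation tests used SciPy 1.17.1, and alignment of the coding sequences used Biopython 1.88. Total counts of 39.7 M to 72.9 M set the counting precision, which matters for Mcub in KO. The fit was tested on simulated data.

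The members and lists were chosen with earlier results of these data known. Named genes are the 5 members, Mok, the listed further uniporter regulators, called list genes from the 3 with the largest change in a comparison (the first of them in the larger lists), and the 5 genes most like Mcub and Mcu. Stim2, Slc25a25, Hspa9, Pacs2, Maip1, Yme1l1, Stoml2, Tmem65 and Atp2a3 are also given in the other line. Pacs2, Vapb, Itpr1, Gpd2, Slc25a25, Cs and Sdha are also given under the other treatment. The other called genes of the ER and mitochondrial content lists are also named for KO against WT under LPS, without their alternative settings. A gene that this rule names is not reported here. Alternatives were DESeq2 1.42.0, RLE scaling, library size alone, no filter, the replicate number as a block, protein-coding genes only, the processed pseudogene share as a covariate, another gene length, and each library left out. Leaving out KO LPS replicate 2 and WT medium replicate 2 together, and the genes beside Mcub, were added after seeing the data.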

Additional observations from a re-analysis of the deposited data

Results flagged for a closer look

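Slc25a25, the calcium-dependent ATP-magnesium and phosphate carrier, differed between the lines in its response to LPS. Its LPS effect was 2.80 ± 0.11 (log2, SE) in KO and 2.14 ± 0.10 in WT, and the difference of 0.67 ± 0.14 passed the interaction test (adjusted p = 0.0409, edgeR's quasi-likelihood test with Benjamini-Hochberg adjustment over all genes). Its KO over WT difference was -0.91 ± 0.10 in medium (adjusted p = 8.35e-05) and -0.25 ± 0.10 under LPS, where it was not called (adjusted p = 0.104). The direction of the difference held without each library in turn (0.59 to 0.78), but the call did not, with adjusted p between 0.00862 and 0.120. It was lost without KO LPS replicate 1 (0.102) or 3 (0.120), KO medium replicate 2 (0.0571) or 3 (0.0926), WT LPS replicate 1 (0.114), 2 (0.115) or 3 (0.0654), or WT medium replicate 1 (0.0725) or 3 (0.0778). It was also lost with RLE scaling (adjusted p = 0.0578), with no filter (0.0509) and with the processed pseudogene share as a covariate (0.153).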

How the results depend on the processing

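The near absence of Mcub in KO held in every setting run, at -6.35 to -6.06 under LPS and -7.20 to -6.83 in medium, as did its rise under LPS in KO. Of the 300 tested values of the 5 genes under 20 alternatives, 241 kept their direction and their side of the threshold, 23 lost a call, 8 gained one and 26 changed sign without a call. The other 2 changed sign with a call in only the main fit or only the alternative. The causes were not tested. Of the 5 genes, 2 were called under LPS in WT, against 0 with library size alone, 0 with no filter, 4 with the replicate block, 1 with protein-coding genes only and 1 with the pseudogene covariate, and 0 to 3 with libraries left out. In KO the 2 became 3 with the replicate block, 1 with no filter, 1 with protein-coding genes only and 1 with the covariate, and 1 to 2 with libraries left out. The interaction's 0 became 0 to 1 with libraries left out. Under library size alone the LPS effect changed sign for Micu2 (-0.19) and Mcur1 (-0.25) in KO and for Slc8b1 (-0.01), Yme1l1 (-0.03) and Mcur1 (-0.29) in WT. Of these, Micu2 and Mcur1 were called on that scale only, and Slc8b1 and Yme1l1 in the main fit only. With libraries left out, the LPS minus medium ratio to Mcu ranged from -0.11 to 0.01 for Smdt1 in KO, from -0.09 to 0.03 for Smdt1 in WT and from -0.03 to 0.05 for Micu2 in WT. The replicate numbers were not taken to pair the samples in the main fit. Same-numbered libraries of different groups deviated with correlations of -0.366 to 0.391, over 0.1 in 11 of 18 pairs. In none of the 4 pairs of groups compared were all 3 over 0.1, but they were for WT under LPS with KO in medium (0.108, 0.162 and 0.231). A library was closest to its own number in 20 of 36 cases, each a choice among 3 libraries. The cases share libraries and depend on each other, and this count was not tested against unrelated numbers. These values do not settle whether the numbers mark pairs, so the replicate block was run as an alternative. With the block, the LPS effect passed for Mcu in KO (adjusted p = 0.0407) and WT (0.0256) and for Micu2 in WT (0.0231). The line difference passed for Slc25a23 under LPS (0.0109) and in medium (0.0153), Micu3 under LPS (0.0379) and Mok in medium (0.0425). The pseudogene covariate follows the treatment in KO, so there it takes up much of the LPS contrast. Counts over all genes moved too, so the share called under LPS in KO was 7.57% with the covariate and 26.5% with no filter, against 52%. In WT it was 21.1% and 13.5%, against 32.6%. In the interaction it was 3.25% with DESeq2 and 4.05% with protein-coding genes only, against 1.6%. Without WT medium replicate 2 the interaction's 183 higher and 240 lower genes became 1606 and 2389, and the 1818 higher genes in KO in medium became 6110. With 10 to 34 counts per library, the depth limits what can be said of Mcub within KO.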
